A study of Mus musculus with 24 samples.

Results

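Collagen chains were examined on 24 arrays of mouse epididymal fat, a white fat depot beside the testis, from mice on dietary restriction, given rapamycin or fed ad libitum. Members were chosen by annotated symbol, as every probe whose gene is named Col, digits, a, digits. The rule found 91 probes for 41 genes, out of 45281 probes on the array and 19057 genes with a probe of 1 symbol. Chains were grouped as fibrillar (11 genes), basement membrane (6), microfibrillar (5) and other (19). Col6a3, Col12a1 and Col20a1 were not analysed here.

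Collagens are secreted proteins of the extracellular matrix whose chains wind around one another into a trimer before export from the cell. Fibrillar types build the tensile fibres of the tissue, type IV forms the sheet-like network of basement membranes, and type VI forms beaded microfibrils. In white fat each adipocyte is wrapped in a basement membrane, type VI collagen is abundant around adipocytes, and collagen accumulation is a known feature of fat that expands in obesity.

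All samples came from male C57BL6/J mice that were 8 months old. DR samples (n = 8) were from mice on 40% dietary restriction, Rapa samples (n = 8) from mice given 14 ppm rapamycin, an inhibitor of the mTOR kinase, and AL samples (n = 8) from mice fed ad libitum, with regimes begun at 2 months of age and kept up for 6 months. The labels do not say whether samples came from separate animals, so p-values measure only the spread between these samples. One set of label fields names epididymal fat and another names liver. All 8 adipocyte markers examined were detected on all 24 arrays. Of 8 hepatocyte markers, Alb, Fgb and Apob were detected on 0 arrays, and 3 passed the detection filter described below, Apoa1 and Ttr on 8 arrays each and Cyp2e1, which white fat also expresses, on 24.

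Depth on these arrays is signal over background, and the number of arrays limits the precision. The number of probes detected ranged from 13012 to 17593 on DR arrays, from 13722 to 19203 on Rapa arrays and from 14657 to 18772 on AL arrays. Transcripts of epididymis and testis, the organs that lie against this fat pad, stood out on DR arrays 1, 3, 5 and 8 and on Rapa arrays 6, 7 and 8. Their marker score, the median log2 intensity of markers of both organs, was 6.68 ± 1.56 in DR, 6.01 ± 1.93 in Rapa and 5.00 ± 0.40 in AL (SD, n = 8 each). It lay between 6.25 and 9.86 on those 7 arrays and between 4.66 and 5.78 on the others, with AL 1 (5.78) and DR 7 (5.75) next below. AL arrays were not free of such signal. The summed linear intensity of all epididymis markers reached 6152 in AL (median 326), and that of all testis markers reached 5293. The 75th percentile of deposited intensity was 44.1 ± 22.4 in DR, 51.4 ± 30.3 in Rapa and 62.1 ± 31.0 in AL, and its part in the results was not tested. Calls for collagen genes and for the gene lists are given with and without those 7 arrays.

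Of the 41 collagen genes, 23 had a probe that passed the filter on detection, a detection p under 0.05 on 8 or more arrays. They comprised 6 fibrillar, 6 basement membrane, 3 microfibrillar and 8 other chains. The 18 genes without such a probe were the fibrillar Col2a1 (the main chain of cartilage fibrils), Col11a1, Col11a2, Col24a1 and Col27a1, the type VI chains Col6a4 and Col6a6, and Col7a1 (anchoring fibrils of skin), Col9a1, Col9a2, Col9a3, Col10a1, Col13a1, Col17a1, Col19a1, Col22a1, Col25a1 and Col26a1. None of their probes was detected on more than 6 arrays. Levels are normalised log2 intensities of the brightest kept probe of each gene, and changes are log2 fold changes with the standard error (SE) and the adjusted p of limma's test.

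Collagen transcripts were lower in DR fat. Compared with AL, 10 of the 23 kept collagen genes (43.5%) fell at an adjusted p under 0.05 and 0 rose, against 6.5% of the 9836 genes tested that fell and 5.2% that rose. At an unadjusted p under 0.05, 13 collagen genes were lower and 0 higher. Over all genes 44.4% of the calls were higher, compared with 11.6% under median scaling. That scaling left 7 collagen genes called lower, among 509 genes called lower in all. The median log2 fold change of the collagen genes was -0.74, against -0.01 over all genes tested, and single genes ranged from -1.70 to 0.33. All 10 genes that fell were detected on all 24 arrays, so none of them passed the detection filter through AL or Rapa arrays alone. Without the filter, the same fit called 10 of 41 collagen genes lower, among 512 genes called lower in all. In bulk tissue, fewer cells of a type and less RNA per cell cannot be told apart.

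**Figure D1:**
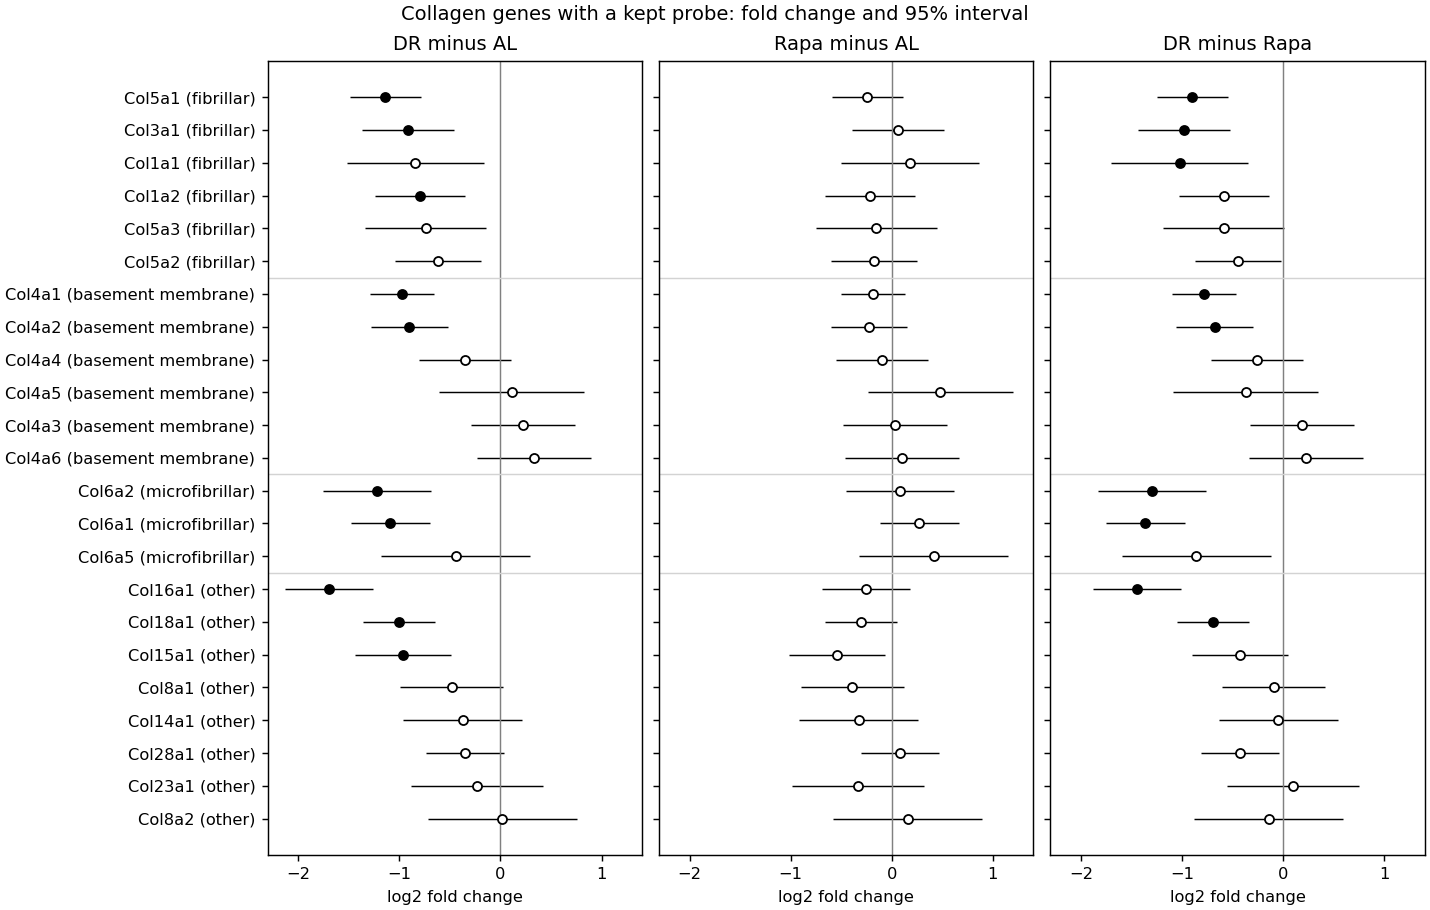
Log2 fold change of each of the 23 kept collagen genes (rows, grouped by class) for DR minus AL, Rapa minus AL and DR minus Rapa, with bars for the 95% interval of the fit. Filled circles mark an adjusted p under 0.05: 10 genes in DR minus AL, 0 in Rapa minus AL and 9 in DR minus Rapa, all of them below 0.

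Fibrillar chains were lower in DR than in AL, with 3 of 6 kept genes called and all 6 negative (median -0.82). Col5a1 encodes the main chain of type V collagen, which sits inside type I fibrils and helps set their diameter. Its lowest, median and highest log2 intensities were 10.35, 10.59 and 11.20 on DR arrays, 10.96, 11.46 and 12.16 on Rapa arrays and 11.10, 11.84 and 12.09 on AL arrays. Of the 8 DR arrays, 7 lay below every AL array and 7 below every Rapa array. Col5a1 fell by 1.14 ± 0.17 (SE) against AL, to 0.455 of the AL level (adjusted p = 6.12e-05). The start regions of Col5a1 and the other fibrillar genes that fell are printed because these members were called lower in DR. Whether they share a control was not tested. Each line gives the 250 bases before the RefSeq start on GRCm38.p6, 5′ to 3′ on the plus strand. Capitals mark any match to 4 short motifs on either strand. The motifs are the TATA box (TATAAA), the CCAAT box (CCAAT), the GC box (GGGCGG) and a SMAD element (CAGACA), each searched separately, so a base could lie in more than 1 match.
Col5a1 (chr2:27886175-27886424): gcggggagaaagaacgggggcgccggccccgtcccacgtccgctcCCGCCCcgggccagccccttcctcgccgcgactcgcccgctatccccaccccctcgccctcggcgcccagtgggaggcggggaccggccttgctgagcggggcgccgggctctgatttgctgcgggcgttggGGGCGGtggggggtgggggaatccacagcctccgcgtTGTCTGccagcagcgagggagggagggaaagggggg
Col1a2 (chr6:4505368-4505617): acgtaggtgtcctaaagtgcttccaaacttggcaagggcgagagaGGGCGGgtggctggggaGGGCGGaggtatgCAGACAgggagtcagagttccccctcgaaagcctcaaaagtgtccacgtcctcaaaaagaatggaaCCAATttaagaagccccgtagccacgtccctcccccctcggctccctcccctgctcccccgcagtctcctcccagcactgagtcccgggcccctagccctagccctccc
Col3a1 (chr1:45311288-45311537): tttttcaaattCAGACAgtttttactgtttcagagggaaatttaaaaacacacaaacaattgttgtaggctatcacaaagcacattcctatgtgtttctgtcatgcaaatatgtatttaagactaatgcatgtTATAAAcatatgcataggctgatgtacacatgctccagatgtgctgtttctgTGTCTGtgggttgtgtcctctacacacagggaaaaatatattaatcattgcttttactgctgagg
In these letters Col5a1 and Col1a2 held GC boxes and a SMAD element, Col1a2 also held a CCAAT box, and Col3a1 held a TATA box and 2 SMAD elements. A match is a description of the letters and not a measured site.

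Promoter windows were found for 19 of the 23 kept genes and for all 10 genes lower in DR than in AL. Over the 32851 windows of the mouse table, 12.4% held TATAAA, 33.8% CCAAT, 32.7% GGGCGG and 17.1% CAGACA. Among the 10 genes that fell, 1 held TATAAA (Col3a1), 5 held CCAAT, 6 held GGGCGG and 4 held CAGACA, and among the 19 kept genes with a window the counts were 1, 7, 13 and 6. A gene was counted where any of its windows held the motif, whereas the shares over the mouse table are per window. Genes with several windows had more chances of a match, so these counts and shares are not like measures.

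Type I and III collagens, the bulk of connective tissue fibrils, were the other fibrillar chains examined. Col3a1, the single chain of type III collagen, had a lowest, median and highest log2 intensity of 7.09, 8.19 and 8.49 on DR arrays, 8.23, 9.03 and 9.48 on Rapa arrays and 8.35, 8.87 and 9.57 on AL arrays. Most DR arrays lay below the lowest AL array (7 of 8). Its change against AL was -0.92 ± 0.22 (SE, adjusted p = 0.00673), and its dimmer second probe gave -0.64 (adjusted p = 0.265). Col1a2, the type I chain present once per molecule, spanned 6.62 to 7.59 (median 7.34) in DR, 6.74 to 8.30 (median 8.01) in Rapa and 7.50 to 8.61 (median 8.08) in AL. Here too 7 of 8 DR arrays were below all AL arrays, and the change was -0.80 ± 0.22 (SE, adjusted p = 0.0162). Col1a1, the partner chain, spanned 6.03 to 8.36 (median 7.04) in DR, 7.39 to 9.44 (median 8.07) in Rapa and 7.19 to 8.79 (median 8.02) in AL. Its DR and AL arrays overlapped widely, and its change of -0.84 ± 0.33 (SE, adjusted p = 0.110) did not pass the test, with a 95% interval from -1.52 to -0.16. Both minor type V chains missed the threshold as well, Col5a2 at -0.62 (adjusted p = 0.0529) and Col5a3 at -0.74 (adjusted p = 0.112). With sets of label numbers as a block, an alternative chosen after seeing the data and described below, Col1a1 (adjusted p = 0.0311), Col5a2 (adjusted p = 0.0296) and Col5a3 (adjusted p = 0.0443) passed too. Col5a2 was detected on 2 DR, 5 Rapa and 6 AL arrays, so its level lay near background.

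Of the 6 basement membrane genes, Col4a1 and Col4a2 fell and the other 4 did not pass the test. Col4a1 and Col4a2 encode the chains of the type IV network found in nearly every basement membrane. Col4a1 had a lowest, median and highest log2 intensity of 11.41, 12.22 and 12.42 on DR arrays, 12.18, 12.90 and 13.15 on Rapa arrays and 12.81, 13.05 and 13.17 on AL arrays. All 8 DR arrays lay below all 8 AL arrays, a separation found in the lower direction for 1.56% of genes tested. The change was -0.97 ± 0.15 (SE, adjusted p = 0.000102), or 0.509 of the AL level. Col4a2 ranged from 10.58 to 11.67 (median 11.17) in DR, from 11.02 to 12.25 (median 11.98) in Rapa and from 11.62 to 12.49 (median 12.04) in AL. Of its DR arrays 7 of 8 were below every AL array, and the change was -0.90 ± 0.18 (SE, adjusted p = 0.00162). The genes lie head to head on opposite strands, with RefSeq starts 21 bases apart on chromosome 8 (GRCm38.p6). Col4a2 is read rightwards from the left start and Col4a1 leftwards from the right start, so their annotated 5′ ends overlap. The stretch bounded by these starts is printed on the plus strand. Capitals mark the start base of each gene, Col4a2 at the left end and Col4a1 at the right.
Col4a2 and Col4a1 (chr8:11312805-11312826): AgtgcgcgggcggcgtctccaA
The other type IV chains, Col4a3, Col4a4, Col4a5 and Col4a6, are best known from kidney and other specialised basement membranes. Their changes against AL were between -0.35 (Col4a4) and 0.33 (Col4a6), with adjusted p from 0.368 to 0.898. Col4a3 was detected on 3 DR, 3 Rapa and 2 AL arrays.

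Microfibrillar type VI chains showed large decreases, with 2 of 3 kept genes called and a median of -1.09. Col6a1 and Col6a2 encode chains that join a longer chain in the type VI molecule. Col6a1 had a lowest, median and highest log2 intensity of 11.05, 11.71 and 12.20 on DR arrays, 12.46, 13.25 and 13.67 on Rapa arrays and 12.09, 12.99 and 13.25 on AL arrays. Of the 8 DR arrays, 6 lay below every AL array and 8 below every Rapa array. It fell by 1.09 ± 0.19 (SE) against AL (adjusted p = 0.000304), and its other probes gave -1.19 and -1.47, both also called. Col6a2 ranged from 8.26 to 9.89 (median 9.14) in DR, from 9.42 to 11.41 (median 10.52) in Rapa and from 9.28 to 10.95 (median 10.51) in AL. The DR and AL ranges overlapped through AL array 6, the lowest AL array. Its change was -1.22 ± 0.26 (SE, adjusted p = 0.00252), and the second probe gave -1.04 (adjusted p = 0.00383). Col6a5, an alternative longer chain, changed by -0.44 with an interval from -1.18 to 0.29 (adjusted p = 0.506).

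Among the 8 other chains, Col16a1, Col18a1 and Col15a1 fell. Col16a1 belongs to the FACIT group, collagens with interrupted helices that associate with fibrils or microfibrils. It had the lowest fold change of the 23 genes. Its lowest, median and highest log2 intensities were 6.71, 7.26 and 7.83 on DR arrays, 8.17, 8.68 and 9.46 on Rapa arrays and 8.65, 8.90 and 9.50 on AL arrays. Every DR array was below every AL array and every Rapa array. The change against AL was -1.70 ± 0.21 (SE, adjusted p = 5.02e-06), which is 0.309 of the AL level. Its start region, with capitals for the motif matches as above, held a GC box and a CCAAT box.
Col16a1 (chr4:130047590-130047839): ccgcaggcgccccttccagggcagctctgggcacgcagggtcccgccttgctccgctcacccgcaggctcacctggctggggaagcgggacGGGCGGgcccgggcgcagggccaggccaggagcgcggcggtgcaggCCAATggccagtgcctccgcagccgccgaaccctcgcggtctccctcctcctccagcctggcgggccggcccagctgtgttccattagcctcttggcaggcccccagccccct
Col18a1 and Col15a1 encode the related multiplexin collagens of basement membrane zones, and a fragment of Col18a1 is the angiogenesis inhibitor endostatin. Col18a1 ranged from 9.39 to 10.43 (median 9.86) in DR, from 10.08 to 11.07 (median 10.56) in Rapa and from 10.37 to 11.24 (median 10.93) in AL. Of its DR arrays 7 of 8 were below all AL arrays, and the change was -1.0004 ± 0.17 (SE, adjusted p = 0.000304), with -0.95 at the second probe (adjusted p = 0.0035). Col15a1 ranged from 8.94 to 10.78 (median 9.93) in DR, from 9.14 to 10.80 (median 10.30) in Rapa and from 10.53 to 10.92 (median 10.80) in AL. AL arrays lay within a narrow band (SD 0.13, against 0.62 in DR), and 7 of 8 DR arrays lay below it. The change was -0.97 ± 0.23 (SE, adjusted p = 0.00673). The other 5 genes of this class, the FACIT gene Col14a1, the short-chain network genes Col8a1 and Col8a2, Col28a1, and Col23a1, a transmembrane collagen, changed by between -0.48 and 0.02, with adjusted p from 0.249 to 0.984. The dimmer probe of Col14a1 gave -0.60 (adjusted p = 0.223).

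**Figure D2:**
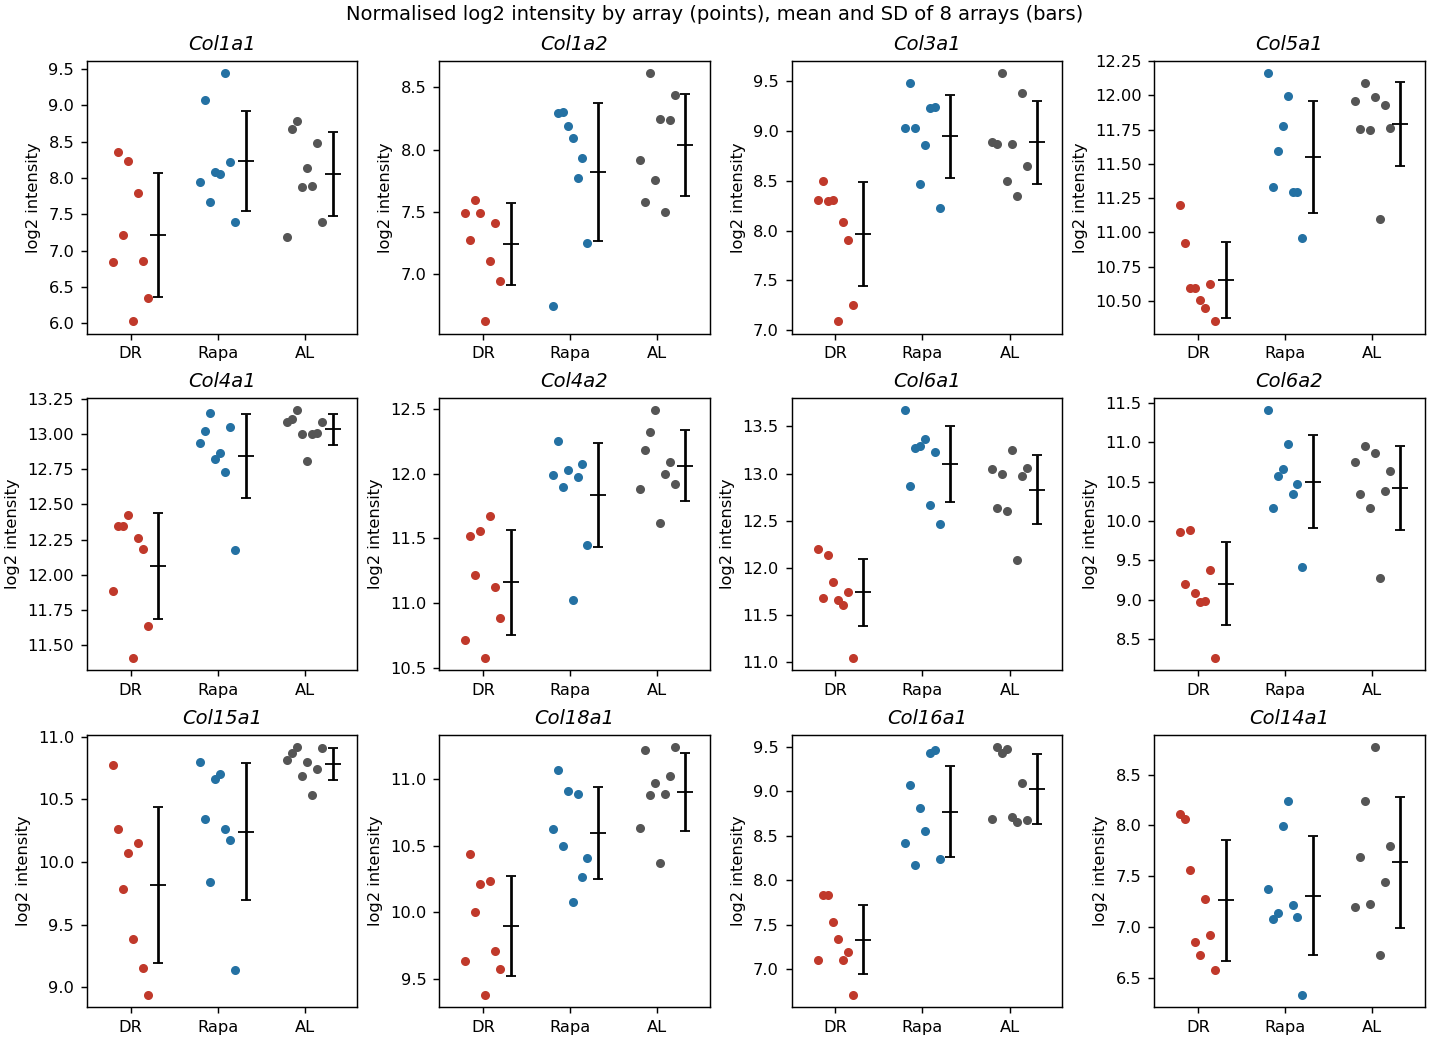
Normalised log2 intensity (vertical axis, a separate scale in each panel) of 12 collagen genes on each array (points), for DR, Rapa and AL from left to right, with the mean and SD of 8 arrays as bars. For Col4a1 and Col16a1 all DR points lie below all AL points, and for Col6a1 and Col16a1 all DR points lie below all Rapa points, whereas Col14a1 overlaps across the groups.

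Under rapamycin, 0 of the 23 collagen genes were called lower and 0 higher than in AL, against 0.153% and 0% of all genes tested. At an unadjusted p under 0.05 the brightest kept probes gave 1 gene, Col15a1, at -0.54 ± 0.23 (SE, adjusted p = 0.457). Of its 8 Rapa arrays 5 lay below every AL array. Fold changes of the 23 genes ranged from -0.54 to 0.48 with a median of -0.15, and 13 were negative. The 95% intervals reached from -1.02 to 1.20. For 5 genes, Col4a1, Col3a1, Col4a3, Col4a4 and Col28a1, the interval lay wholly within 1.5-fold of AL in either direction. Changes of that size were not resolved for the others. Col4a3 was detected on 3 Rapa and 2 AL arrays, Col4a4 on 5 and 7, and Col28a1 on 8 and 6. These 3 genes lay near background, so their narrow intervals do not show that such a change was absent. Type VI chains stood at 0.27 (Col6a1), 0.08 (Col6a2) and 0.42 (Col6a5), and the basement membrane chains Col4a1 and Col4a2 at -0.19 and -0.23. The probes of Col8a1, a chain of the short-chain network of vessel walls, pointed in opposite directions, at -0.39 and 0.53, neither called.

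DR was also set against Rapa directly. Here 9 of the 23 genes (39.1%) fell and 0 rose, against 5.54% and 5.88% of all genes tested, and 13 were lower at an unadjusted p under 0.05. The median change was -0.58, against -0.01 over all genes. Both comparisons of DR use the same 8 DR arrays, so their calls are not independent. Col6a1 changed by -1.36 ± 0.19 (adjusted p = 2.17e-05), Col16a1 by -1.44 ± 0.21 (adjusted p = 4.5e-05) and Col6a2 by -1.30 ± 0.26 (SE, adjusted p = 0.00128). Separation of all DR from all Rapa arrays, seen for Col6a1 and Col16a1, occurred in the lower direction for 0.956% of genes tested. Col5a1 (-0.90), Col3a1 (-0.98), Col4a1 (-0.78), Col4a2 (-0.68), Col18a1 (-0.69) and Col1a1 (-1.02) were called too, with adjusted p from 0.00085 to 0.0476. Col1a1 was the least secure of them, because its call was lost on leaving out any of 15 arrays (DR 1, 3, 5, 7 and 8, Rapa 1, 2, 4, 5, 6 and 7, AL 4, 5, 6 and 7), with values from -1.19 to -0.85 over all leave-one-out fits. Col1a2 (-0.58, adjusted p = 0.0900) and Col15a1 (-0.42, adjusted p = 0.296) did not pass against Rapa.

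Chains that assemble into the same molecule were compared within each array, to ask whether partners changed unequally. The difference between partners was taken on each array and its group means were compared by a two-sided exact permutation test over samples, for 4 pairs in 3 comparisons (12 tests, adjusted together). None passed. In DR against AL the difference between partners shifted by -0.05 for Col1a1 and Col1a2 (exact p = 0.894), by -0.07 for Col4a1 and Col4a2 (exact p = 0.526) and by 0.13 for Col6a1 and Col6a2 (exact p = 0.255). For Col5a1 and Col5a2 it shifted by -0.51 (exact p = 0.0415, adjusted p = 0.498), with Col5a2 near background. On the authors' processed scores that pair passed in DR against AL (adjusted p = 0.0168) and in DR against Rapa (adjusted p = 0.0382).

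Each array was summarised by its collagen shift, the median over the 23 genes of the deviation from the AL mean. This was -0.72 ± 0.29 in DR, -0.08 ± 0.29 in Rapa and -0.00 ± 0.10 in AL (SD, n = 8 each). DR arrays ranged from -1.17 to -0.46, Rapa arrays from -0.65 to 0.35 and AL arrays from -0.15 to 0.16. Every DR array was below every AL array, and Rapa array 8 was the only Rapa array below the highest DR array. By collagen class, the DR mean was -0.87 for fibrillar, -0.34 for basement membrane, -1.09 for microfibrillar and -0.66 for other chains. The lowest collagen shifts belonged to DR array 5 (-1.17, marker score 9.34) and DR array 8 (-1.13, marker score 7.67), and the lowest Rapa shift to Rapa array 8 (-0.65, marker score 9.86), all 3 among the arrays rich in epididymis and testis transcripts. DR arrays 2, 4 and 6, with marker scores from 5.09 to 5.36, had shifts of -0.47, -0.51 and -0.46. Other arrays did not follow that order. DR array 7 had a shift of -0.85 at a marker score of 5.75, while the marker-rich DR arrays 1 and 3 had shifts of -0.58 and -0.57 at scores of 7.74 and 7.32. Rapa array 7 had the highest shift of all arrays (0.35) at a score of 6.25, and Rapa array 6 was at -0.08 with a score of 7.94.

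Arrays whose label numbers were 1 and 5, 2 and 6, 3 and 7, or 4 and 8 tended to deviate from their group means together, and the labels do not say what a number marks. Deviations of 2 arrays of different groups from the same set had correlations from -0.21 to 0.59 (median 0.19, 37 of 48 pairs over 0.1). Across sets the median was -0.08 (29 of 144 pairs over 0.1). Within these 4 sets, the median collagen change was -0.78, -0.48, -0.83 and -0.71 in DR against AL, -0.54, -0.60, -0.62 and -0.44 in DR against Rapa, and -0.09, 0.08, -0.18 and -0.35 in Rapa against AL. The 10 genes called in DR against AL and the 9 called in DR against Rapa had the same sign in every set. These genes were called on the same arrays, so this is not independent support. Within the sets, 0, 0, 2 and 0 collagen genes were called lower in DR against AL, and 0 in each set in DR against Rapa.

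**Figure D3:**
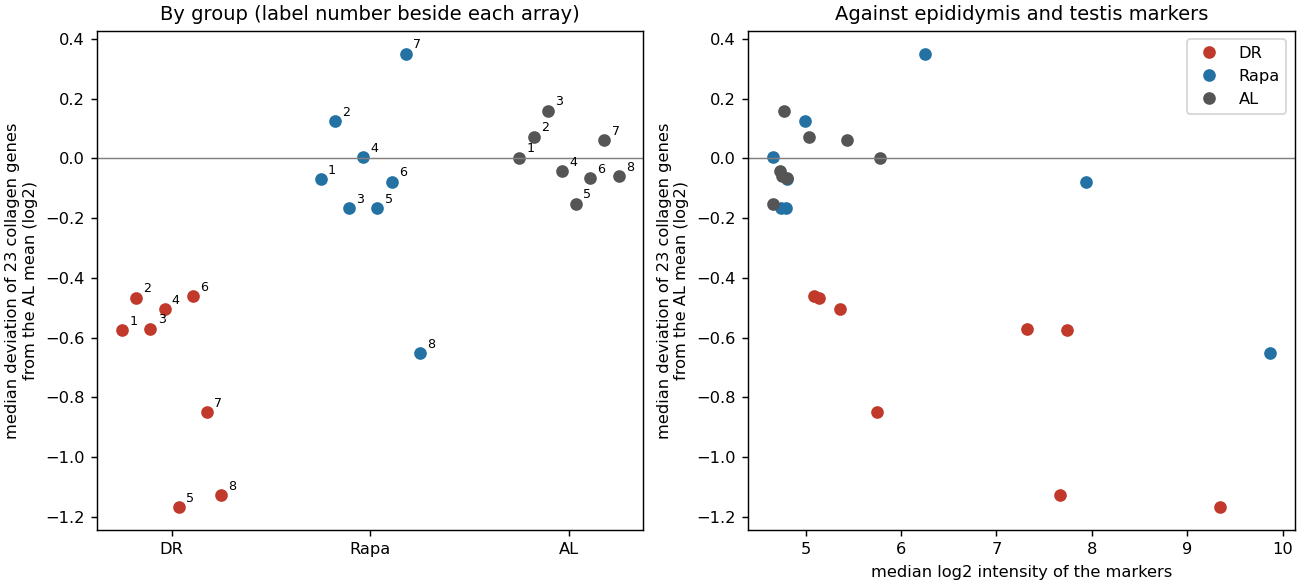
Collagen shift of each array (vertical axis, log2), by group on the left with the label number beside each point, and against the marker score of epididymis and testis (horizontal axis, log2 intensity) on the right. All DR arrays lie between -1.17 and -0.46 and all AL arrays between -0.15 and 0.16, and on the right Rapa 7 (6.25) is the highest point at 0.35, DR 7 (5.75) lies at -0.85 and DR 5 (9.34) is the lowest at -1.17.

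Leaving out the 7 marker-rich arrays left 4 DR, 5 Rapa and 8 AL arrays. Then 7 collagen genes were lower in DR than in AL, and Col4a2 (-0.59, adjusted p = 0.108), Col1a2 (-0.72, adjusted p = 0.132) and Col3a1 (-0.69, adjusted p = 0.0798) lost their calls. Leaving out DR 7, AL 6 and AL 7 as well, which were picked from earlier results of these data (marker scores 5.75, 4.80 and 5.43), left 3 DR, 5 Rapa and 6 AL arrays and 5 lower genes, namely Col4a1, Col5a1, Col6a1, Col6a2 and Col16a1. For DR against Rapa 5 genes were called in each reduced set, and Col4a2, Col1a1, Col3a1 and Col18a1 lost their calls in both. Without 7 arrays Col1a1 was at -0.35 and Col4a2 at -0.37 against Rapa. The size of change of Col16a1 (-1.61 without 7 arrays), Col6a1 (-1.11), Col6a2 (-1.26) and Col5a1 (-1.14) against AL moved little, whereas Col4a1 was at -0.73. Every gene that was called with all arrays kept its sign in both reduced sets. With the marker score as a covariate 7 genes were lower in DR than in AL, Col1a2, Col3a1 and Col15a1 losing their calls. Over all genes, 639 were called lower in DR than in AL with 24 arrays, 374 without 7, 282 without 10 and 489 with the covariate. For DR against Rapa the counts were 545 with 24 arrays, 426 without 7 and 386 without 10. AL 1, with the highest marker score of the AL arrays (5.78), stayed in both reduced sets. The part of the epididymis and testis transcripts in the remaining differences was not tested.

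**Figure D4:**
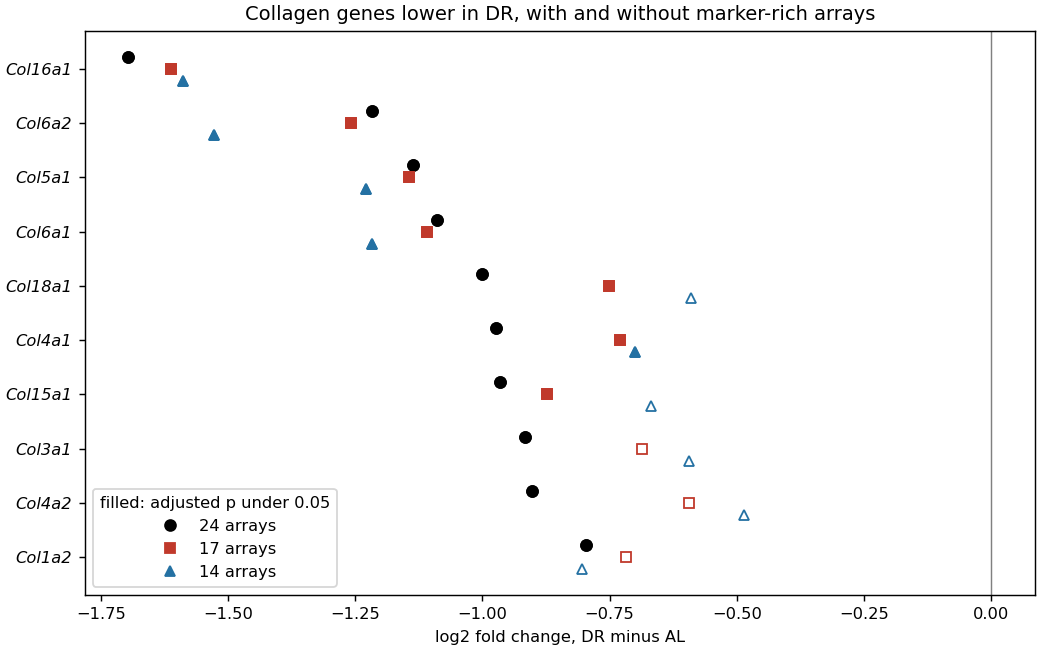
Log2 fold change, DR minus AL, of the 10 collagen genes called on 24 arrays (black circles), with 17 arrays after removal of 7 (red squares) and with 14 arrays after removal of 10 (blue triangles); filled symbols have an adjusted p under 0.05. All symbols lie below 0, and 5 genes stay filled in each set.

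Genes that process and bind collagen were taken from lists of known function. Over all genes tested, the shares that fell were 6.5% in DR against AL and 5.54% in DR against Rapa. Of 17 kept genes for hydroxylation and chaperones, 1 fell in DR against AL, Serpinh1, the collagen-specific chaperone HSP47 of the endoplasmic reticulum. Serpinh1 ranged from 11.57 to 12.31 (median 11.96) in DR, from 12.09 to 13.19 (median 12.52) in Rapa and from 12.50 to 13.52 (median 13.07) in AL, so DR and AL arrays did not overlap. It fell by 1.05 ± 0.17 (SE) against AL (adjusted p = 9.21e-05) and by 0.59 against Rapa (adjusted p = 0.0192). Such separation, found in the lower direction for 1.56% of genes tested, was not particular to Serpinh1 in this list. Plod3 was separated too (highest DR 10.85, lowest AL 10.91), yet it was not called (-0.40, adjusted p = 0.126). For propeptide cleavage, 2 of 3 kept genes fell against both AL and Rapa, Bmp1, which removes the C-terminal propeptide of fibrillar procollagens, and Pcolce2, which enhances that cleavage. Against AL they changed by -0.71 ± 0.17 (Bmp1, adjusted p = 0.00625) and -1.29 ± 0.24 (Pcolce2, SE, adjusted p = 0.000531). Of 2 kept cross-linking oxidases, Loxl1 fell by 0.71 against AL (adjusted p = 0.0129), while Lox was at -0.42 (adjusted p = 0.103). Both were lower in DR than in Rapa, Lox at -0.85 and Loxl1 at -0.80. In Rapa against AL, Lox was at 0.43 (adjusted p = 0.402), with 5 Rapa arrays above every AL array.

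Among 6 kept proteoglycans that bind fibrils, Prelp, which links basement membranes to the tissue beneath (-0.94, adjusted p = 0.000696), and Lum, which limits fibril thickness (-0.71, adjusted p = 0.0259), fell in DR against AL, and both fell against Rapa. Dcn, or decorin, was at -0.11 with an interval from -0.50 to 0.28 (adjusted p = 0.800). Of 7 kept collagen receptors, such as the integrin chain Itgb1 and the kinase receptor Ddr1, 0 were called in any comparison, and at -0.44 Ddr1 had the lowest value against AL (adjusted p = 0.234). Of 11 kept genes of the TGF-beta axis, a known inducer of collagen genes in fibroblasts, 0 were called in DR against AL. Tgfb1 itself fell against Rapa, at -0.90 ± 0.17 (SE, adjusted p = 0.000924), and was at -0.51 against AL (adjusted p = 0.0596). Ccn2, a TGF-beta target, was at 0.58 against AL (adjusted p = 0.199). No gene of these 6 lists was called higher in DR, and none was called in Rapa against AL. Without the 7 marker-rich arrays, an alternative added for these lists after seeing the data, Serpinh1 (-0.94), Pcolce2 (-0.99), Loxl1 (-0.61) and Prelp (-0.68) stayed called in DR against AL. Bmp1 (-0.49, adjusted p = 0.117) and Lum (-0.78, adjusted p = 0.0731) did not. In DR against Rapa, Lox, Loxl1, Prelp and Tgfb1 stayed called without them, and Serpinh1 (-0.63, adjusted p = 0.0978), Bmp1 (-0.57, adjusted p = 0.0845), Pcolce2 (-0.64, adjusted p = 0.202) and Lum (-0.88, adjusted p = 0.0584) did not.

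**Figure D5:**
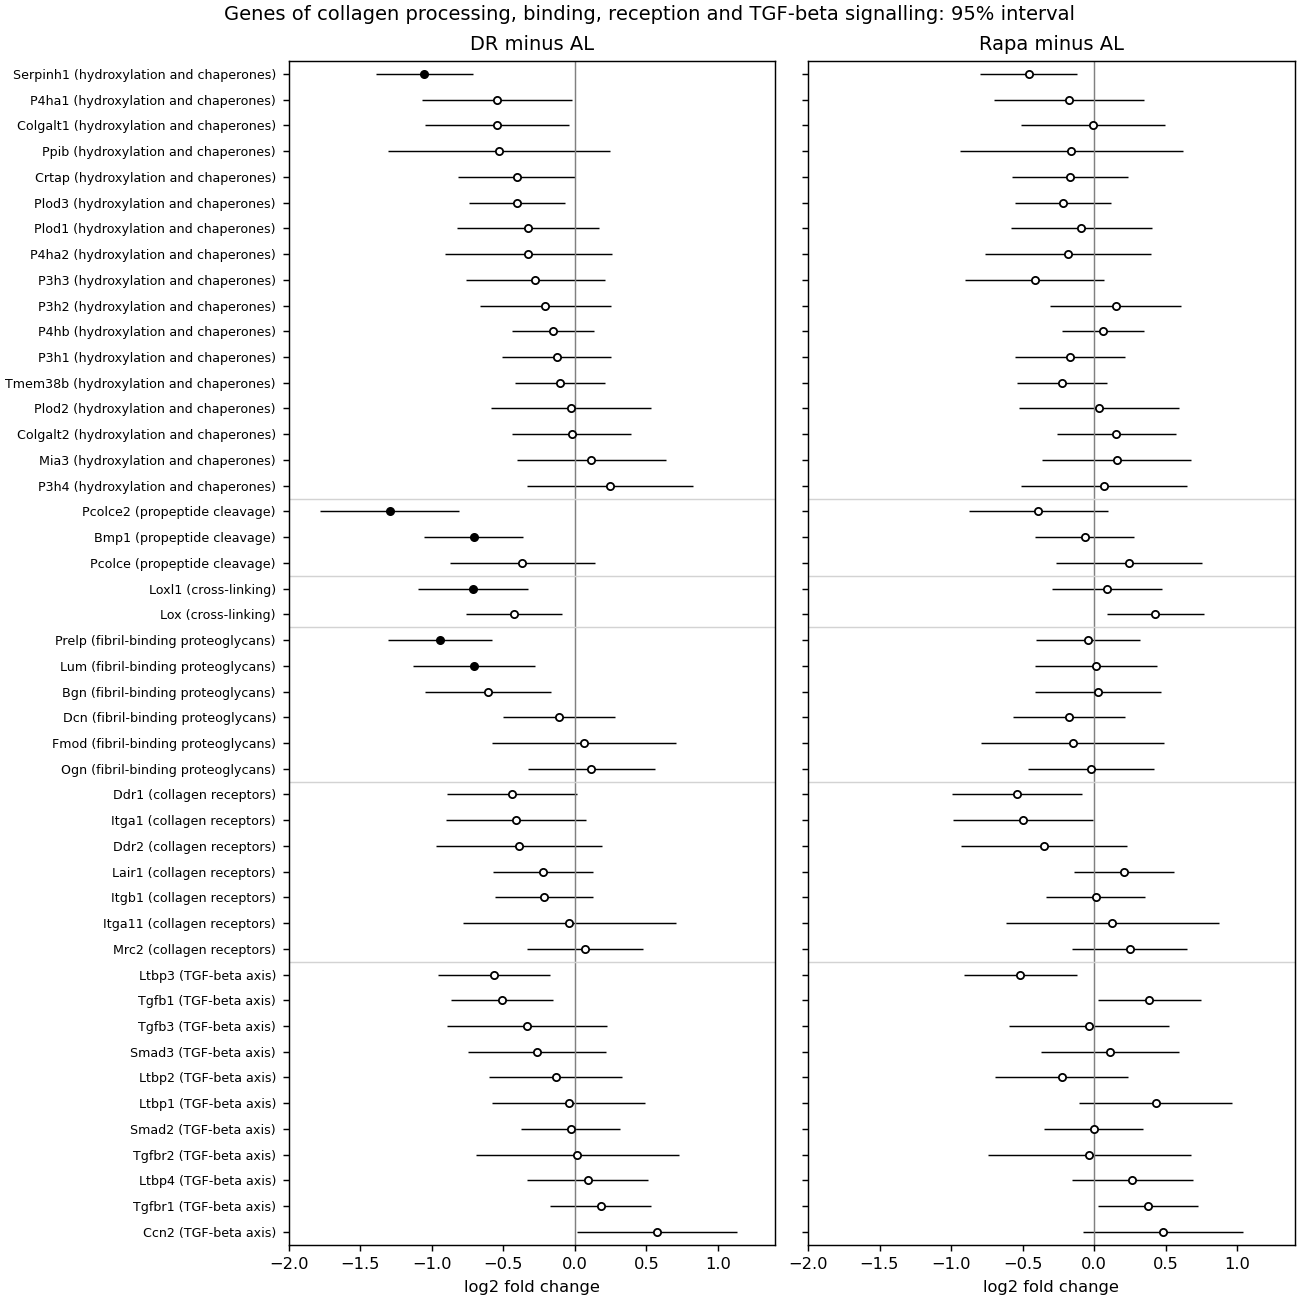
Log2 fold change with its 95% interval for 46 kept genes of collagen processing, binding, reception and TGF-beta signalling (rows), for DR minus AL on the left and Rapa minus AL on the right. Filled circles have an adjusted p under 0.05; in DR minus AL these are Serpinh1, Pcolce2, Bmp1, Loxl1, Prelp and Lum, and none is filled in Rapa minus AL.

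Markers of the cells that make collagen, and of other cells in the sample, were read beside these results, in DR against AL, where 6.5% of all genes tested fell and 5.2% rose. Sums cover every marker of a list with a probe on the array, kept or not. They thus span 10 epididymis, 7 testis, 7 skeletal muscle and 8 hepatocyte markers, and signal near background adds to them. Of 10 kept fibroblast and progenitor markers, 1 fell in DR against AL, Dpt, a matrix protein of fibroblasts (-0.90, adjusted p = 0.0412), and Pdgfra, the receptor that marks these cells, was at -0.16 (adjusted p = 0.671). The summed linear intensity of this list ranged from 6726 to 10313 in DR, from 5257 to 12207 in Rapa and from 8412 to 11790 in AL, and 8 of its genes were detected on all arrays. Of 6 kept smooth muscle and pericyte markers, Acta2, the smooth muscle actin, fell (-1.28), with sums from 4540 to 25429 in DR, from 7236 to 12423 in Rapa and from 9316 to 24545 in AL. Of 8 endothelial markers, the junction genes Cdh5 (-0.85) and Cldn5 (-0.89) fell, with sums from 4167 to 5777 in DR, from 2748 to 7702 in Rapa and from 5143 to 8413 in AL. Of 7 macrophage markers, Adgre1 (-1.06), Mpeg1 (-1.45) and Trem2 (-1.52) fell, with sums from 6391 to 10940 in DR, from 9332 to 23557 in Rapa and from 7904 to 20245 in AL. None of these 4 lists holds a marker detected on 0 arrays. In the other direction, 2 of 6 mesothelial markers rose (Upk3b by 1.29 and Upk1b by 1.11; sums from 1128 to 3753 in DR, from 1262 to 3162 in Rapa and from 586 to 2927 in AL), as did 5 of 7 epididymis markers (sums from 701 to 38163 in DR, from 275 to 58077 in Rapa and from 246 to 6152 in AL). Of 5 kept testis markers 0 were called (sums from 218 to 5307 in DR, from 191 to 12334 in Rapa and from 188 to 5293 in AL), and Tnp2 was detected on 0 arrays. Of 3 kept skeletal muscle markers, Acta1 (-1.44) and Pvalb (-1.81) fell in DR, and Acta1 fell by 2.52 in Rapa against AL (sums from 279 to 768 in DR, from 243 to 464 in Rapa and from 640 to 1671 in AL), with Tnnt3 and Atp2a1 detected on 0 arrays. Of 8 adipocyte markers, Lep, the hormone leptin, fell by 1.53 ± 0.13 (SE, adjusted p = 1.55e-08) and 0 rose, with a list median of 0.14 and sums from 38858 to 63174 in DR, from 48603 to 72690 in Rapa and from 63914 to 88159 in AL. Every DR sum of the adipocyte list thus lay below every AL sum (medians 54483 and 74947), although the list's median fold change was positive. Adipoq, or adiponectin, was at -0.03 (adjusted p = 0.924), and Plin1, which coats the lipid droplet, at 0.31 (adjusted p = 0.402). The fatty acid carrier Fabp4 was at 0.51 (adjusted p = 0.135), and Cidec, Lipe, Pparg and Car3 were not called in DR against AL either. Of the 3 kept hepatocyte markers 0 were called in DR against AL (sums from 16619 to 22422 in DR, from 1811 to 14705 in Rapa and from 10861 to 22229 in AL), and Cyp2e1, a cytochrome P450, fell in Rapa against AL (-1.80, adjusted p = 0.0164).

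Without the 7 marker-rich arrays, Dpt (-0.58, adjusted p = 0.381), Adgre1 (-0.87, adjusted p = 0.0985), Acta1 (-1.08, adjusted p = 0.227) and 3 of the 5 epididymis markers that rose lost their calls in DR against AL. Acta2, Cdh5, Cldn5, Mpeg1, Trem2, Upk3b, Upk1b, Pvalb and Lep stayed called. In Rapa against AL, Acta1 (-2.16, adjusted p = 0.0508) and Cyp2e1 (-1.66, adjusted p = 0.0718) lost their calls. The part of these cells in the collagen differences was not tested.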

How the data were processed

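Total RNA was hybridised to Illumina mouse BeadChips, 1 array per sample, per the labels. The deposited table holds the authors' probe intensity for each array and a detection p-value, per the file headers, and between 26.7% and 34.3% of an array's values lie below 0, so background had been subtracted. The scanner software is not given in the sources used here. A second deposited table holds the authors' processed score, which equals, within each array, the standardised log of intensity plus an array-specific constant (largest deviation 0.00177), with an unknown log base and column medians from -0.42 to -0.32. It was used as an alternative only.

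Intensities were processed in R 4.3.3 with neqc of limma 3.58.1 (offset 16, background from the detection p-values, quantile normalization, log2). A probe was kept if its detection p fell under 0.05 on 8 or more arrays (17165 probes), and a gene stood for its brightest kept probe. A single limma fit of 3 group means on 24 arrays (21 residual degrees of freedom) gave two-sided moderated tests, with Benjamini-Hochberg adjustment over all kept probes and calls at 0.05. The fit was tested on simulated data. Of 100 genes lowered 1.5-fold, it recovered 17 in DR against AL, 33 in Rapa against AL and 19 in DR against Rapa. Of 100 lowered 2-fold, it recovered 67, 75 and 77. False calls were 6 of 90, 3 of 111 and 9 of 105. A gene that missed the threshold is therefore not shown to be unchanged. Symbols came from the platform annotation, and promoter sequences from RefSeq. Members and gene lists were chosen with earlier results of these data known. Genes are named where they were called, where they belong to the commonest trimers, or as the extremes of a range, and probes of 1 gene that disagree are named. Some uncalled genes of the lists, such as Dcn, Ccn2, Pdgfra, Adipoq, Plin1 and Fabp4, were named by choice and not by this rule. The alternatives concern scaling, the authors' score, filters, probe choice, blocks, marker-rich arrays, array weights and left-out arrays.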

Additional observations from a re-analysis of the deposited data

Results flagged for a closer look

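In 5 of the 69 sets of 8 arrays tested (23 collagen genes in 3 groups, 7.25%), 1 array stood far from the other 7 relative to the range of its set, as judged by Dixon's criterion, which chance meets in about 1 of 20 sets. Among Rapa arrays, Col4a1 was 12.18 on Rapa array 8, and the nearest array was at 12.73. In AL, array 6 was low for Col5a1 (11.10, nearest 11.75) and for Col6a2 (9.28, nearest 10.17). In AL, array 1 was high for Col4a3 (5.99, nearest 5.14) and for Col8a2 (7.81, nearest 6.17), 2 genes with low signal. Rapa array 8 also had the highest marker score of epididymis and testis (9.86).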

How the results depend on the processing

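Every collagen gene called in DR against AL or in DR against Rapa kept its sign under every alternative run, and 0 genes were called higher or called in Rapa against AL in any of them. Leaving out 1 array gave 10 to 11 lower genes in DR against AL, 8 to 10 in DR against Rapa and 0 to 0 in Rapa against AL, with medians from -0.79 to -0.60, from -0.66 to -0.47 and from -0.21 to -0.06. Median scaling over all probes gave 7 lower genes in DR against AL with a median of -1.004, where all genes shifted to -0.28, so the collagen median was at -0.73 relative to it, and 4 in DR against Rapa. Scaling over kept probes, chosen after seeing the data, gave 10 and 8. Under median scaling, 11.6% of all called genes in DR against AL were higher, compared with 44.4% in the reported fit, and for DR against Rapa 39.7% compared with 51.5%. Without a filter the medians over 41 genes were -0.11 (DR against AL) and -0.18 (DR against Rapa). The marker score as a covariate gave a DR against AL median of -0.53. Without 7 arrays that median was -0.54 and 5 genes were lower in DR against Rapa. Without 10 arrays 5 genes were lower in each DR comparison, with medians of -0.49 and -0.26. On the authors' scores, 9 genes were lower in DR against AL (Col6a1 lost), and 1 chain pair passed in DR against AL and 1 in DR against Rapa.

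Label numbers are shared by the groups, and same-numbered arrays of different groups had correlated deviations of -0.07 to 0.55 over 24 pairs, 19 of them over 0.1 and 5 not. The labels do not say what a number marks, and the number was not taken as a pairing. Of 24 arrays, 9 correlated best with their own number in another group, and 18 with an array of their own set of numbers. With the replicate block, 13 genes were lower in DR against AL (Col1a1, Col5a2 and Col5a3 added), 10 in DR against Rapa (Col6a5 added) and 0 in Rapa against AL. Over all genes the block moved the DR against AL calls to 1016 lower and 870 higher, compared with 639 and 511, and leaving out 10 arrays gave 282 and 151. The sets of label numbers were found after seeing the data, and as a block they gave 13 lower genes in DR against AL, 10 in DR against Rapa and 0 in Rapa against AL. Leaving out 1 array added Col5a2 to the DR against AL calls (DR 4 or 6, Rapa 1, 3, 4, 7 or 8, AL 5 or 7), Col1a1 (DR 2) and Col5a3 (AL 8), and added Col6a5 (DR 4) and Col1a2 (Rapa 1) to those in DR against Rapa. Chains near background, such as Col4a3 and Col5a2, are limited by signal.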

Other observations

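Several collagen genes lie next to each other in the mouse gene table, and both members were kept for 5 such pairs. In DR against AL both members fell for Col4a1 with Col4a2 (-0.97 and -0.90) and for Col6a1 with Col6a2 (-1.09 and -1.22). Neither was called for Col4a3 with Col4a4 (0.22 and -0.35) or for Col4a5 with Col4a6 (0.11 and 0.33). In the pair of Col3a1 and Col5a2, Col3a1 was called (-0.92) and Col5a2 was not (-0.62, adjusted p = 0.0529).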
